A study of Mus musculus with 17 samples.

Results

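The genes described here are 10 receptors through which growth factors, cytokines and a chemokine reach myeloid leukaemia cells. They were taken from the tables by symbol, from a given list: Flt3, Csf2ra, Csf2rb, Csf2rb2, Csf3r, Il3ra, Il6ra, Il1rl1, Ifngr1 and Cxcr4. All 10 were found among the 56305 genes of both deposited count tables. All 10 passed the filter on low counts, as did 16666 genes of the whole table. The libraries were made from total RNA of mouse bone marrow with acute myeloid leukaemia (AML) on a C57BL/6 background. The Mt1ko group had the genotype Dnmt3aR878H/+;Npm1cA/+ with CRISPR-Cas9 knockdown of Mt1, which encodes the metal-binding protein metallothionein 1. The control group had the genotype Dnmt3aR878H/+;Npm1cA/+ alone, so both groups carried a heterozygous mutation of the DNA methyltransferase Dnmt3a and a heterozygous Npm1cA allele. The sources used here do not say whether cells were sorted, how many animals gave the RNA, or which guide or clone lies behind the knockdown. There were 9 Mt1ko and 8 control libraries, each labelled a technical replicate, and the authors summed them into 6 samples. The Mt1ko samples joined libraries 4-6, 10-12 and 16-18, and the control samples joined libraries 1-3, 7-9 and 14-15. No label ties a sample to an animal of its own, so the p-values rest on a spread among samples that may be technical.

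These receptors fall into a few families. Il3ra and Csf2ra encode the ligand-binding alpha chains for interleukin-3 (IL-3) and for granulocyte-macrophage colony-stimulating factor (GM-CSF). Both pair with the beta chain encoded by Csf2rb, and mice carry a second beta chain gene, Csf2rb2, whose product serves IL-3 alone. Csf3r encodes the receptor for granulocyte colony-stimulating factor, Il6ra the chain that binds interleukin-6, Ifngr1 the ligand-binding chain for interferon gamma, and Il1rl1 the receptor for interleukin-33, known as ST2. Flt3 is a receptor tyrosine kinase of early progenitors that is often mutated in human AML with mutant NPM1, and Cxcr4 binds the chemokine CXCL12, which holds haematopoietic cells in the marrow. The receptors here for IL-3, GM-CSF, granulocyte colony-stimulating factor, interleukin-6 and interferon gamma have no kinase of their own. They signal through JAK kinases and STAT transcription factors.

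The libraries themselves differed, and the values that touch the receptors are these. Library totals were 27124722 to 38645072 counts, and totals of the summed samples 64247249 to 106407001. Levels are counts scaled to a common library size of 1e6 (CPM), adjusted by the trimmed mean of M-values (TMM), computed separately for the libraries and for the sums. Mt1 was 49.3 to 95.8 CPM in 8 of the 9 Mt1ko libraries, against 332.6 to 449.4 CPM in the 8 control libraries. Library 6, labelled Mt1ko, went against its label with 316.9 CPM, and the Mt1ko sample 4-6 contains it. Libraries 10 to 12 had 11548 to 13174 genes with a count and 21.9% to 30.2% of counts in mitochondrial ribosomal RNA, against 14823 to 17739 genes and 4.6% to 11.2% in the other 14. As a check of the tissue, the 14 monocyte and macrophage markers summed to 6997 to 7301 CPM in Mt1ko and 6431 to 8575 CPM in control. Within that sum the markers parted in samples 10-12 and 7-9: Lyz2 was 4589 and 5644 CPM there, against 2238 to 3111 CPM in the other 4 samples, and Mrc1 was 19.9 and 12.2 CPM, against 164.1 to 305.0 CPM. The part of these differences in the receptor levels was not tested. B cell markers summed to at most 4.03 CPM in Mt1ko and 4.13 CPM in control, and T and NK cell markers to at most 0.48 CPM in Mt1ko and 0.46 CPM in control.

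The beta chain genes carry the most RNA of these receptors, and they are near copies of each other, so their sequences are shown first. Csf2rb (ENSMUSG00000071713) lies at chr15:78325752-78353847 on the plus strand of GRCm38, and Csf2rb2 (ENSMUSG00000071714) at chr15:78282507-78305721 on the minus strand. The genes point away from each other, with 20030 bases between their starts. Their coding sequences in GENCODE vM21 are 2688 bases and 2634 bases long and are identical at 95.2% of 2628 aligned bases. Of the windows of 100 coding bases, 11.0% of those in Csf2rb occur unchanged in Csf2rb2, and 11.3% of those in Csf2rb2 occur unchanged in Csf2rb. The longest identical run is 242 bases. The 90 bases below are the stretch within an exon where the genes differ most, at 16 positions, which are in capitals. They are coding bases 308 to 397 of Csf2rb (chr15:78338897-78338986, plus strand) and 311 to 400 of Csf2rb2 (chr15:78294345-78294434, minus strand).
Csf2rb: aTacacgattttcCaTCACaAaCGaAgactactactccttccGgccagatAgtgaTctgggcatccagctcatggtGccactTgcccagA
Csf2rb2: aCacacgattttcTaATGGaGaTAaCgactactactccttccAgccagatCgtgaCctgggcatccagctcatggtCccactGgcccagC
The sources used here do not say how reads from identical stretches were shared out, so the division between these genes is uncertain.

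Il1rl1 and Csf2rb2 had similar patterns over the libraries, as described further on, and their promoters are shown for that reason. RefSeq on GRCm38.p6 gives Il1rl1 a distal and a proximal start. As background, mast cells use the distal start and fibroblasts the proximal one, and counts per gene do not separate them. Each run is the 250 bases before a start, with matches to AGATAA or TGATAA on either strand in capitals, the letters that GATA factors such as the mast cell and progenitor regulator Gata2 bind. The distal Il1rl1 stretch is chr1:40429320-40429569 and the proximal one chr1:40439379-40439628, both on the plus strand, and the Csf2rb2 stretch is chr15:78305722-78305971 on the minus strand.
Il1rl1 distal: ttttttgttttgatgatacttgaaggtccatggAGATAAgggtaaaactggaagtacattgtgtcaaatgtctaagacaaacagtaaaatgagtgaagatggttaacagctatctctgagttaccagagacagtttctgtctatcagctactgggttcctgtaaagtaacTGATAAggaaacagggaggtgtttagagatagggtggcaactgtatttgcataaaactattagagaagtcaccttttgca
Il1rl1 proximal: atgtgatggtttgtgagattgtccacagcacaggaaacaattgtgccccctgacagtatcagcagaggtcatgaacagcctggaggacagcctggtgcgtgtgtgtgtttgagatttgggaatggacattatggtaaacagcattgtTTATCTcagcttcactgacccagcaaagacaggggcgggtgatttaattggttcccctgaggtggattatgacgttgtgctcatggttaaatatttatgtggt
Csf2rb2: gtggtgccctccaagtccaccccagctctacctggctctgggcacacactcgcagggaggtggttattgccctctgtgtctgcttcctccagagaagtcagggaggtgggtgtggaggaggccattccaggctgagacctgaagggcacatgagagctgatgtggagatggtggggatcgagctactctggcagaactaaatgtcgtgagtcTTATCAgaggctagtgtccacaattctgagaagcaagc
The distal Il1rl1 stretch has 2 matches, and the proximal one and that of Csf2rb2 have 1 each. Such letters occur in 16.6% of 32851 mouse promoters of this length, and in 4 of the 10 promoters listed for these receptors, the other being that of Il6ra. The letters GAGGAA were also searched, on either strand. They occur in 23.3% of all promoters and in 4 of the 10, that of Csf2rb2 among them and neither of Il1rl1. A match is a description of the letters and not a bound site. RefSeq listed promoters for 9 of the 10 receptors, and Csf2rb is named only.

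Per length of exon, the beta chains were the most abundant receptor transcripts, and Flt3 was the scarcest. Csf2rb2 averaged 142.4 ± 120.0 CPM per kilobase in Mt1ko and 83.2 ± 16.6 in control (SD, n = 3 each), and Csf2rb 126.2 ± 54.5 in Mt1ko and 90.7 ± 9.7 in control. These levels overlapped each other, and the beta chains held the top 2 ranks in every sample. Ifngr1 followed with 43.4 ± 10.0 CPM per kilobase in Mt1ko and 47.4 ± 7.2 in control, and Csf2ra with 40.7 ± 13.3 in Mt1ko and 41.0 ± 16.0 in control. Every sample of Csf2rb lay above every sample of Ifngr1, while the lowest Csf2rb2 sample, at 64.8, lay below the highest Il1rl1 sample, at 80.1. Il1rl1, Csf3r and Il6ra overlapped their neighbours in the order, while Cxcr4 overlapped Il6ra above it but not Il3ra below it. Il1rl1 was the most mobile, ranking as high as 3 in one sample and as low as 9 in another. Il3ra averaged 3.64 ± 1.67 CPM per kilobase in Mt1ko and 4.18 ± 1.85 in control, below Cxcr4 in every sample. Flt3 was last in every sample, at 0.20 ± 0.18 CPM per kilobase in Mt1ko and 0.34 ± 0.43 in control. Exon length here is the union of annotated exons, so a gene whose isoforms are shorter is understated.

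**Figure D1:**
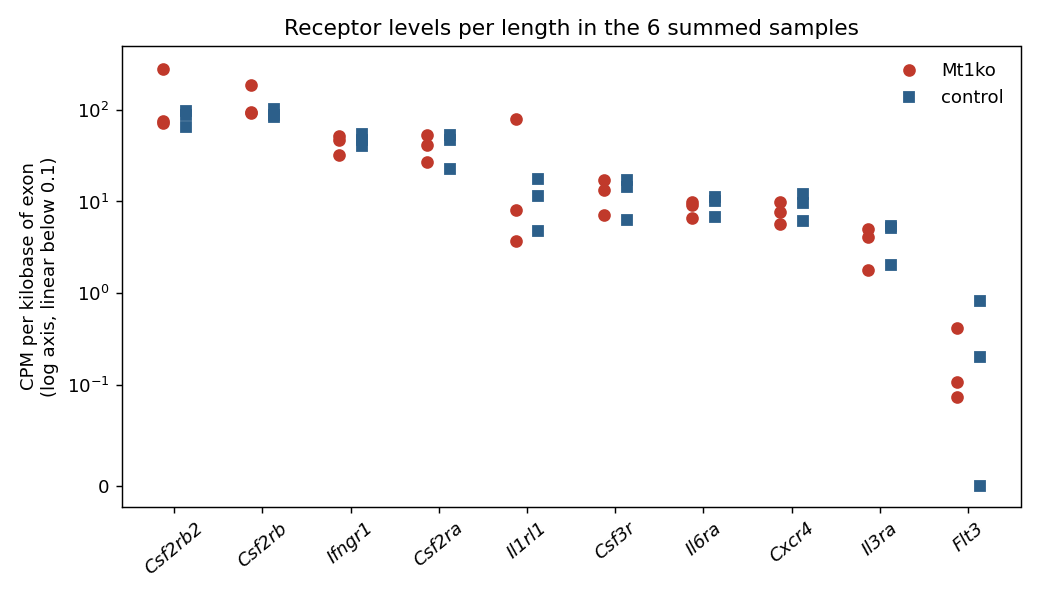
Level of each receptor per kilobase of exon (vertical axis, CPM per kilobase, logarithmic above 0.1) in the 3 Mt1ko and 3 control samples, 1 point per summed sample. Csf2rb2 and Csf2rb lie at the top with 64.8 to 280.9 and 83.1 to 189.1, and Flt3 at the bottom with 0 to 0.82.

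The design asks which receptors differed in transcript level when Mt1 was knocked down. Between Mt1ko and control, 0 of the 10 receptors passed the threshold in edgeR's quasi-likelihood test on the summed samples (adjusted p = 1 for each, Benjamini-Hochberg over all 16666 genes). The background was 0% of all genes tested. At an unadjusted p under 0.05 there were also 0 of 10 receptors, against 171 genes or 1.03% of all. DESeq2 and limma-voom called 0 of the 10 as well. The groups did not overlap for 0 of the 10 receptors, against 7.1% of all genes tested (2.74% with every Mt1ko sample higher and 4.36% with every Mt1ko sample lower). Of the 10 estimates 4 were above 0 and 6 below, where 48.3% of all genes were above 0, with a median log2 fold change of -0.07, beside -0.01 over all genes. Mt1 itself was 172.0, 67.8 and 80.7 CPM in the Mt1ko samples and 352.5, 440.9 and 359.4 CPM in the control samples. Its estimate of -1.85 (SE 0.34) did not pass over all genes with edgeR (adjusted p = 1) and passed with DESeq2 (adjusted p = 8.03e-05). Leaving out library 6 turned the sign of Csf2ra alone among the receptors, to 0.02. Leaving out sample 10-12 turned the signs of 6: Csf2rb2 and Il1rl1, given with their values further on, and Csf2ra (0.21), Il3ra (0.13), Il6ra (0.02) and Ifngr1 (0.05). None of the 10 passed in either case. The intervals set what this comparison could see: for Ifngr1, Il6ra, Csf2ra and Csf3r the 95% interval lay within 1 log2 unit of 0, and for Il1rl1 and Flt3 it spanned more than 4 units.

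**Figure D2:**
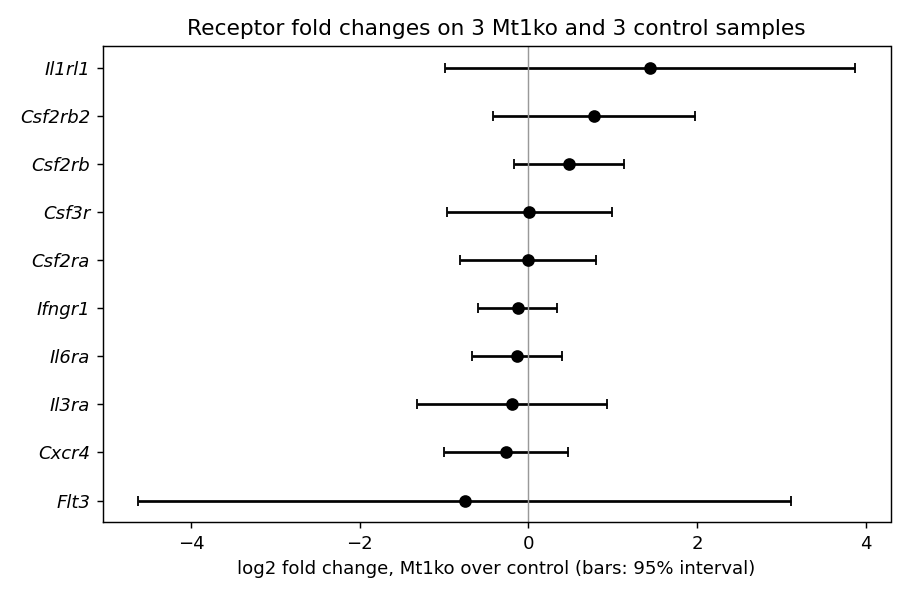
Log2 fold change of each receptor, Mt1ko over control (horizontal axis), with its 95% interval from the edgeR fit on 3 Mt1ko and 3 control samples. Every interval crosses 0, and those of Flt3 (-4.62 to 3.11) and Il1rl1 (-0.99 to 3.87) are the widest.

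After Il1rl1, the beta chains had the highest estimates of the set, and both were highest in the same Mt1ko sample. Csf2rb was 680.1, 1376 and 698.7 CPM in Mt1ko samples 4-6, 10-12 and 16-18, against 635.4, 604.6 and 739.5 CPM in control samples 1-3, 7-9 and 14-15. Sample 10-12 stood at 1376 CPM and the other 5 samples between 604.6 and 739.5 CPM, so the groups overlapped. In bulk RNA, fewer cells that make a transcript and less of it per cell cannot be told apart. The estimated difference was 0.48 on the log2 scale (SE 0.28, 95% interval -0.17 to 1.13; edgeR adjusted p = 1), and 0.07 without sample 10-12. With the 17 libraries entered singly its unadjusted p was 0.024 (edgeR adjusted p = 1), but libraries of 1 sample are not independent.
Csf2rb2 was 338.1, 1332 and 354.6 CPM in the Mt1ko samples, against 306.9, 459.9 and 416.2 CPM in the control samples. Again sample 10-12 was highest, and the other Mt1ko samples lay within the control range. The log2 fold change was 0.77 (SE 0.52; edgeR adjusted p = 1), and -0.18 without sample 10-12, so its sign rested on that sample.

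The division between the beta chains varied more between samples than between groups. The ratio of Csf2rb2 to Csf2rb counts was 0.50, 0.97 and 0.51 in Mt1ko samples 4-6, 10-12 and 16-18, against 0.48, 0.76 and 0.56 in control samples 1-3, 7-9 and 14-15. Samples 10-12 and 7-9, 1 of each group, had the highest ratios. The mean log2 ratio was -0.68 ± 0.55 in Mt1ko and -0.76 ± 0.33 in control (SD, n = 3 each), a difference of 0.08 (exact two-sided permutation p = 0.8, where 3 against 3 samples cannot go below 0.1). The difference was -0.24 without sample 10-12 and -0.07 without sample 1-3. Over libraries the ratio ran from 0.43 in library 14 to 1.15 in library 11. Library 11, labelled Mt1ko, was the one library with more counts for Csf2rb2 than for Csf2rb.

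The alpha chains had estimates near 0, with 1 low sample in each group. Csf2ra (ENSMUSG00000059326, chr19:61223957-61228429, minus strand) was 153.9, 77.9 and 118.8 CPM in Mt1ko samples 4-6, 10-12 and 16-18, against 151.6, 65.4 and 136.2 CPM in control samples 1-3, 7-9 and 14-15. Samples 10-12 and 7-9 lay below the other 4, and the groups overlapped. Mt1ko over control gave -0.01 on the log2 scale (SE 0.35, 95% interval -0.82 to 0.80; edgeR adjusted p = 1).
Il3ra (ENSMUSG00000068758, chr14:14346275-14356011, plus strand), known in human AML as the antigen CD123, was 15.0, 5.35 and 12.0 CPM in the Mt1ko samples, against 15.8, 6.06 and 15.3 CPM in the control samples. It had the same pair of low samples. Its log2 fold change was -0.20 (SE 0.48; edgeR adjusted p = 1). Within sample 10-12 the libraries parted: library 11 held 13.6 CPM, library 10 held 0.63 CPM, and library 12 held 0 counts. That allows up to 0.10 CPM at 3 counts, without the TMM adjustment that the levels carry.

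Set against the beta chain Csf2rb, both alpha chains ranged widely over the samples. Per kilobase, Csf2ra was 0.57, 0.14 and 0.43 of Csf2rb in Mt1ko samples 4-6, 10-12 and 16-18, against 0.60, 0.27 and 0.47 in control samples 1-3, 7-9 and 14-15. Il3ra was 0.054, 0.0095 and 0.042 of Csf2rb in the Mt1ko samples, against 0.061, 0.025 and 0.051 in the control samples. Both ratios were lowest in sample 10-12 and next lowest in sample 7-9, and the groups overlapped in both.

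Csf3r and Il6ra, receptors of granulocytic and inflammatory signalling, were also lowest in these samples. Csf3r (ENSMUSG00000028859, chr4:126024550-126044440, plus strand) was 62.5, 25.8 and 48.4 CPM in Mt1ko samples 4-6, 10-12 and 16-18, against 61.3, 22.4 and 52.2 CPM in control samples 1-3, 7-9 and 14-15. The groups covered nearly the same range, and Mt1ko over control gave 0.01 on the log2 scale (SE 0.42, 95% interval -0.97 to 0.99; edgeR adjusted p = 1). The estimate was -0.29 without sample 4-6, -0.04 without 16-18 and -0.32 without 7-9. Beside it, the 14 neutrophil markers summed to 191.5 to 368.4 CPM in Mt1ko and 227.1 to 402.5 CPM in control, with 9 of the 14 at 0 in sample 10-12 and Camp and Retnlg at 0 in every sample. Elane, the neutrophil elastase of promyelocytes, named after its values were seen, was 66.4, 1.37 and 27.04 CPM in the Mt1ko samples and 54.5, 6.71 and 80.0 CPM in the control samples, lowest where Csf3r was low. The list did not move as one: in sample 7-9 Mpo, Mmp9 and Ly6g, at 5.84, 4.57 and 1.03 CPM, were the highest of the 6 samples. The part of such cells in the Csf3r level was not tested.
Il6ra (ENSMUSG00000027947, chr3:89864059-89913196, minus strand) was 84.6, 56.5 and 79.1 CPM in the Mt1ko samples, against 96.3, 58.4 and 87.1 CPM in the control samples. Its estimate was -0.13 on the log2 scale (SE 0.23, 95% interval -0.67 to 0.40; edgeR adjusted p = 1). Within sample 10-12 it was 95.2 CPM in library 10 and 34.6 CPM in library 12, a 2.75-fold range, where the other samples spanned at most 1.36-fold.

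Ifngr1 (ENSMUSG00000020009, chr10:19591949-19610229, plus strand) had the smallest ratio of highest to lowest sample of the 9 receptors detected in all samples. It was 145.9, 91.7 and 133.3 CPM in Mt1ko samples 4-6, 10-12 and 16-18, against 155.2, 114.3 and 135.0 CPM in control samples 1-3, 7-9 and 14-15. The highest sample was 1.69 times the lowest, and the groups overlapped. Its estimate of -0.13 on the log2 scale (SE 0.20, 95% interval -0.59 to 0.34; edgeR adjusted p = 1) had the narrowest interval of the set.

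Il1rl1 (ENSMUSG00000026069, chr1:40429570-40465415, plus strand) varied most of the 9 receptors detected in all 6 samples. It was 55.5, 552.2 and 25.8 CPM in Mt1ko samples 4-6, 10-12 and 16-18, against 32.7, 122.5 and 78.8 CPM in control samples 1-3, 7-9 and 14-15. Sample 10-12 was highest, while the other Mt1ko samples included the lowest of all. The estimate was 1.44 on the log2 scale (SE 1.05, 95% interval -0.99 to 3.87; edgeR adjusted p = 1) with all samples and -0.94 without sample 10-12, and it passed the threshold in neither. Libraries of 1 sample also differed widely. In the control sample 14-15, library 14 held 1.13 CPM and library 15 held 162.0 CPM, a 143-fold difference. In the control sample 7-9 the libraries held 5.42, 91.7 and 321.9 CPM, and in the control sample 1-3 they held 6.32, 15.7 and 69.8 CPM. In the Mt1ko sample 10-12 they held 352.8, 769.6 and 493.5 CPM, the highest 3 of all 17 libraries.

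**Figure D3:**
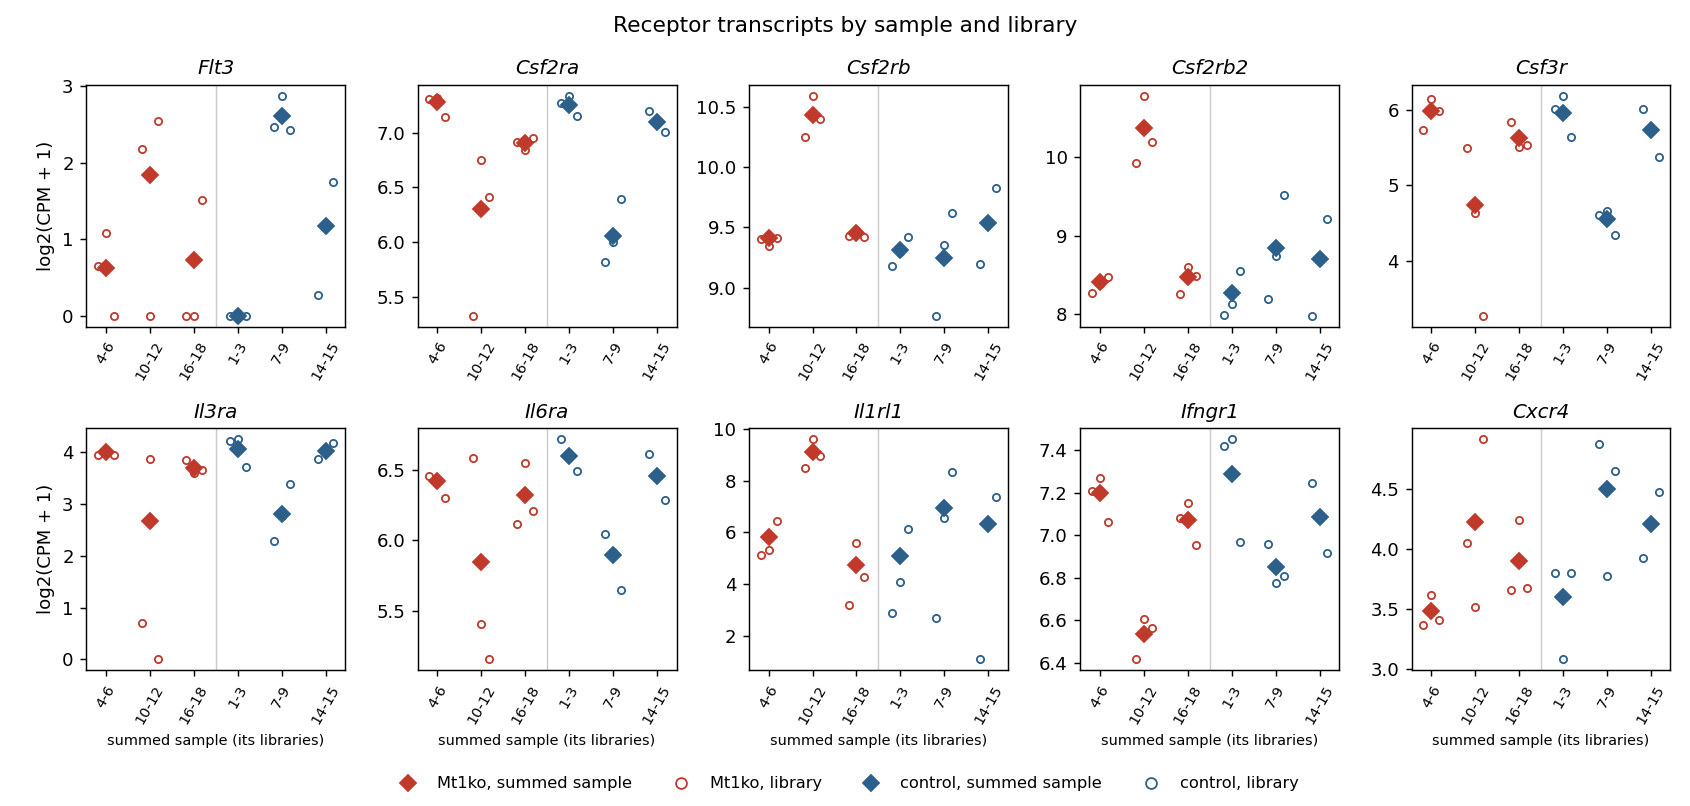
Level of each receptor as log2(CPM + 1) (vertical axes, each with its own range) in the 3 Mt1ko samples, left of the line, and the 3 control samples, right of it; diamonds are summed samples and open circles their libraries. Il1rl1 spans 1.13 to 769.6 CPM over libraries, and Csf2ra, Csf3r and Il3ra are lowest in samples 10-12 and 7-9.

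Flt3 (ENSMUSG00000042817, chr5:147330741-147400489, minus strand) had the fewest counts of the set. Its 935 counts over 17 libraries gave 0.54, 2.57 and 0.65 CPM in Mt1ko samples 4-6, 10-12 and 16-18, against 0, 5.09 and 1.25 CPM in control samples 1-3, 7-9 and 14-15. The control sample 1-3 held 0 of 94497323 counts, while the control sample 7-9 was the highest of all. For sample 1-3 that allows up to 0.032 CPM at 3 counts, without the TMM adjustment. Mt1ko over control gave -0.75 on the log2 scale (SE 1.67; edgeR adjusted p = 1), 1.59 with limma-voom and 1.02 without sample 7-9. Of the libraries, 4 of 9 Mt1ko and 3 of 8 control had 0 counts. In the control sample 7-9, all 3 libraries held 125 to 226 counts each.
Cxcr4 (ENSMUSG00000045382, chr1:128588199-128592293, minus strand) was 10.2, 17.6 and 13.9 CPM in the Mt1ko samples, against 11.1, 21.6 and 17.5 CPM in the control samples. Its estimate was below 0 at -0.26 (SE 0.32, 95% interval -1.001 to 0.47; edgeR adjusted p = 1), and -0.03 without sample 7-9, with overlapping groups. Within each group its highest sample was again 10-12 or 7-9, as for Flt3. The libraries of sample 10-12 were uneven in both. Libraries 10, 11 and 12 held 15.6, 10.5 and 29.0 CPM of Cxcr4, and 90, 0 and 114 counts of Flt3. In sample 7-9 Cxcr4 ran from 12.7 to 28.2 CPM over libraries.

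Mast cell transcripts varied together with Il1rl1, Csf2rb2 and Csf2rb over the libraries. ST2 and the beta chains are known on mast cells, which respond to interleukin-33 and IL-3. The 14 mast cell and basophil markers summed to 415.0, 5360 and 167.3 CPM in Mt1ko samples 4-6, 10-12 and 16-18, against 240.6, 843.7 and 678.5 CPM in control samples 1-3, 7-9 and 14-15. Of the 14 markers 11 were tested, with 10 estimates above 0 and 1 below, where 48.3% of all genes were above 0. The groups did not overlap for 0 of the 11, against 7.1% of all genes tested, and 0 passed. In the sum, Mt1ko samples 4-6 and 16-18 lay below control samples 7-9 and 14-15, and sample 10-12 alone lay above them. Cpa3, Cma1 and Tpsb2, proteases of mast cell granules, were 1564, 1295 and 1652 CPM in sample 10-12. The basophil protease Prss34 was at 0 in all samples, as was the mast cell receptor Mrgprb2, and the basophil protease Mcpt8 reached at most 0.29 CPM. Mcpt4, also listed, was at 0 in sample 10-12 and at most 0.36 CPM elsewhere. Hdc was 0.25 CPM in sample 10-12, within the 0.06 to 0.77 CPM of the other samples, so the list did not move as one. Over the 17 libraries the 3 genes most like Il1rl1 were Tpsb2, Cma1 and Cpa3, with Pearson r of log2(CPM + 1) of 0.99 each, among 8312 genes compared. With the summed markers r was 0.997 for Il1rl1, 0.88 for Csf2rb2 and 0.83 for Csf2rb. These correlations describe 17 libraries that share samples, depth and scaling, and carry no test. Counts of Il1rl1 were 0.33 to 0.86 of those of Cpa3 in 16 libraries, and library 14 held 39 counts of Il1rl1 beside 7 of Cpa3. Of the stem and progenitor markers, Cd34 was also highest in sample 10-12, at 76.8 CPM against 3.81 to 9.46 CPM in the other samples. Meis1 and Hoxa10 of that list were lowest there, at 16.4 and 23.1 CPM. The part of mast cells or progenitors in the levels of these receptors was not tested.

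The beta chains kept a level in libraries where mast cell markers were scarce, and Il1rl1 did not. In library 14, with the markers at 6.98 CPM, Il1rl1 was 1.13 CPM while Csf2rb2 was 251.7 CPM and Csf2rb 586.5 CPM. In library 11, with the markers at 7895 CPM, Il1rl1 was 769.6 CPM, Csf2rb2 1763 CPM and Csf2rb 1540 CPM. From the one to the other Il1rl1 spanned 681-fold, while the whole range over libraries was 7.01-fold for Csf2rb2 and 3.54-fold for Csf2rb.

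**Figure D4:**
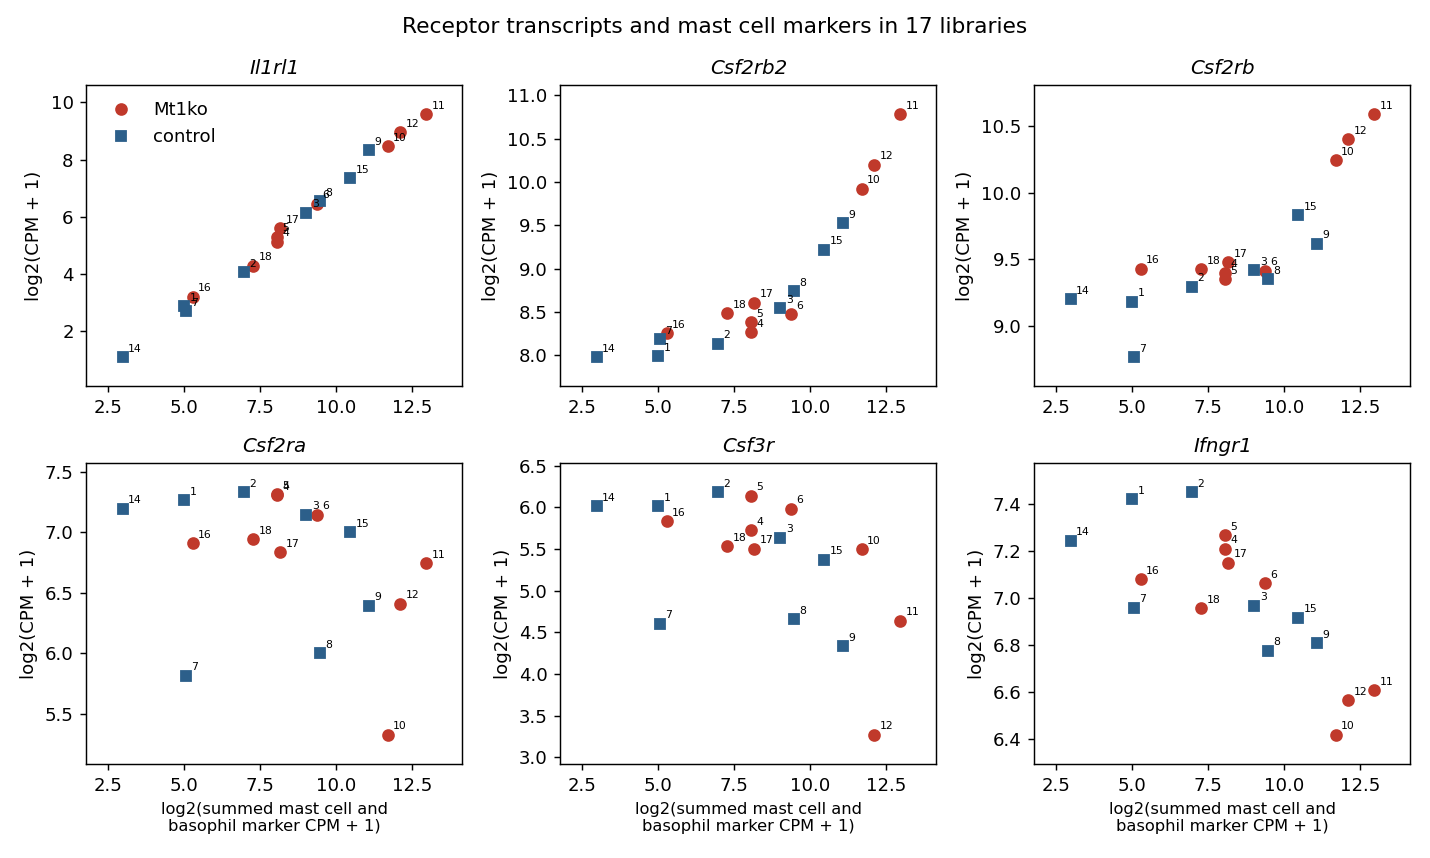
Each panel sets log2(CPM + 1) of a receptor (vertical axis) against log2(CPM + 1) of the 14 summed mast cell and basophil markers (horizontal axis) in 9 Mt1ko and 8 control libraries, numbered. Il1rl1 follows the markers along the whole axis, Csf2rb2 and Csf2rb are highest in libraries 10 to 12, and Csf2ra is lowest in libraries 10, 7 and 8, whose marker levels are 3294, 32.5 and 701.7 CPM.

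Low Csf2ra and Csf3r did not go with mast cell markers in every library. Library 7, in the control sample 7-9, had markers at 32.5 CPM and Il1rl1 at 5.42 CPM, yet it held 55.3 CPM of Csf2ra and 23.3 CPM of Csf3r. Library 15, in the control sample 14-15, had markers at 1397 CPM and held 127.3 CPM of Csf2ra and 40.5 CPM of Csf3r. Library 10, labelled Mt1ko, held the lowest Csf2ra of all at 39.1 CPM and 44.1 CPM of Csf3r, while library 12 of the same sample held 84.0 CPM of Csf2ra and the lowest Csf3r at 8.63 CPM. With the summed mast cell and basophil markers r was -0.36 for Csf2ra, -0.41 for Il3ra, -0.56 for Csf3r, -0.58 for Il6ra and -0.75 for Ifngr1 over 17 libraries, again as a description. With the summed neutrophil markers r was 0.58 for Csf2ra, 0.42 for Il3ra, 0.59 for Csf3r, 0.63 for Il6ra and 0.65 for Ifngr1. Mmp8 alone made up 164.4 to 216.5 CPM of that sum in the 6 samples, where the whole was 191.5 to 402.5 CPM. With the summed monocyte and macrophage markers r was -0.57 for Csf2ra, -0.30 for Il3ra, -0.26 for Csf3r, -0.21 for Il6ra and -0.12 for Ifngr1.

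**Figure D5:**
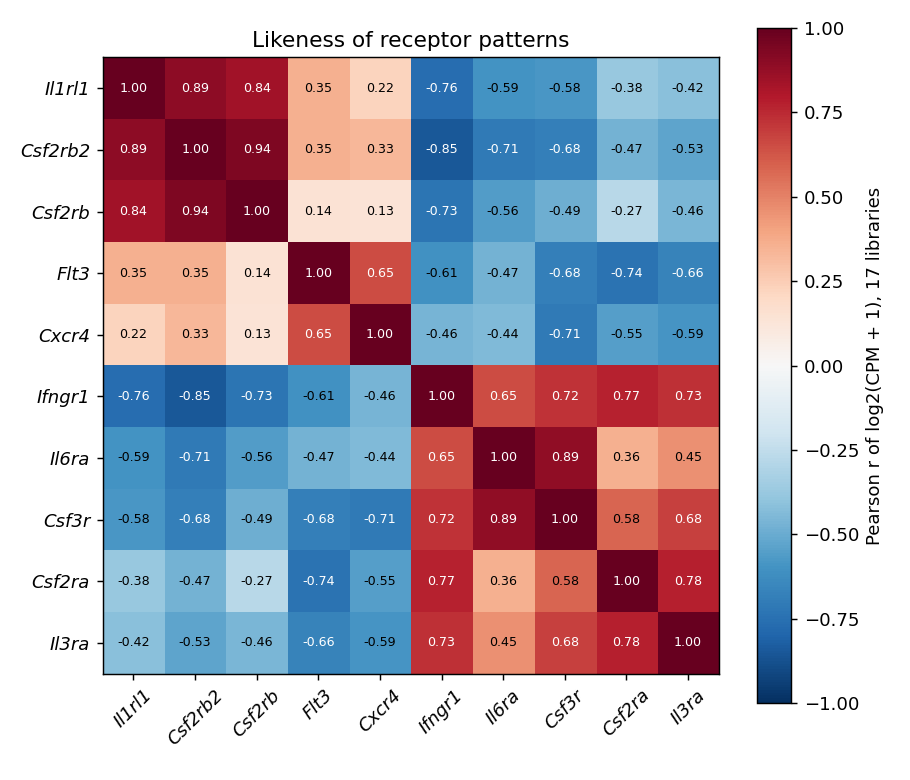
Pearson r of log2(CPM + 1) for each pair of receptors over 17 libraries (colour and number), with receptors on both axes. Csf2rb2, Csf2rb and Il1rl1 have r of 0.84 to 0.94 with each other, and Ifngr1 has r of -0.73 to -0.85 with them.

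Among the receptors, likeness over libraries split the set into blocks. The closest pair was Csf2rb and Csf2rb2 (r 0.94), which also share sequence, followed by Csf2rb2 with Il1rl1 (r 0.89) and Il6ra with Csf3r (r 0.89). Csf2ra and Il3ra had r 0.78, while Csf2ra and its partner chain Csf2rb had r -0.27. Flt3 and Cxcr4 had r 0.65 with each other, and Flt3 had r -0.74 with Csf2ra. Beyond the set, the genes most like Csf2rb2 were Pde1c, Ctla2a and Anpep (r 0.97, 0.97 and 0.96) and those most like Csf2rb were Pecam1, Ttc39b and Cd63 (r 0.95, 0.95 and 0.94). Those most like Csf2ra were H2-M3, Spcs2 and Sdf2l1 (r 0.95, 0.94 and 0.93), and for Csf3r they were Tbc1d2b, Ubxn4 and Svep1 (r 0.96 each). Those most like Il3ra were Zdhhc3, Mki67 and Paqr7 (r 0.96, 0.95 and 0.94), and for Il6ra they were Nlrx1, Usp36 and Nup205 (r 0.97, 0.94 and 0.93). Those most like Ifngr1 were Mia2, Aars and Tpd52 (r 0.95, 0.94 and 0.94), and for Flt3 they were Mcoln1, Tmem189 and Mdm2 (r 0.91, 0.89 and 0.87). Ampd3 and Tnrc6b were among those most like Cxcr4 (r 0.79 and 0.78).

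The spread of libraries within a sample was set beside the spread of the sums. A sum averages over its libraries, so these spreads are unlike measures. On the log2(CPM + 1) scale the spread between libraries exceeded that between summed samples of a group in 4 of the 10 receptors. For Il1rl1 the pooled SD was 2.05 between libraries of a sample and 1.74 between sums, and for Il3ra it was 0.92 and 0.71. Csf2rb and Ifngr1 had the smallest SD between libraries, 0.25 and 0.16, with 0.42 and 0.29 between sums.

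The column headers give each library an index sequence, and 3 second index sequences occur. They were used here to group the libraries, and no label calls them a batch. Among libraries with the first, Il1rl1 averaged 52.9 CPM in 3 Mt1ko libraries and 37.8 CPM in 5 control libraries. With the second it averaged 406.0 CPM in 4 Mt1ko libraries and 161.7 CPM in 3 control libraries. Csf2rb2 averaged 331.5 CPM in Mt1ko and 324.9 CPM in control with the first, and 1054 CPM in Mt1ko and 527.7 CPM in control with the second. Csf2ra averaged 152.1 CPM in Mt1ko and 114.5 CPM in control with the first, and 87.2 CPM in Mt1ko and 118.7 CPM in control with the second, so its direction turned. All libraries of sample 10-12 carried the second index, and the third was carried by 2 Mt1ko libraries alone, so no control library could be set beside it.

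Ligands of these and related receptors gave no call. Of 11 listed ligands 5 were tested, with 4 estimates above 0 and 1 below, where 48.3% of all genes were above 0, and 0 passed. The groups did not overlap for 0 of the 5, against 7.1% of all genes tested. The median log2 fold change of these few genes was 1.00, beside -0.01 over all genes. The estimates of Csf1, Flt3l and Il6, named below, were -0.07, 0.43 and 1.62, so the median is that of a ligand not named. Csf2, Il3, Il5, Ifng, Cxcl12 and Kitl did not pass the filter, and 4 of the 11 ligands had 0 counts in every sample. Csf1, the ligand of the macrophage receptor Csf1r, averaged 17.4 ± 1.9 CPM in Mt1ko and 18.3 ± 6.7 CPM in control, and Flt3l, the ligand of Flt3, 11.7 ± 6.3 CPM in Mt1ko and 8.73 ± 1.03 CPM in control (SD, n = 3 each). Il6 was 0.89, 17.5 and 0.23 CPM in the Mt1ko samples, against 1.85, 1.77 and 2.45 CPM in the control samples, so sample 10-12 alone stood out.

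Partner and related receptors did not pass either. Of 14 listed, 10 were tested, with 4 estimates above 0 and 6 below and a median log2 fold change of -0.07, and 0 passed. Il6st, the signalling chain gp130 that pairs with Il6ra, was 432.7, 219.0 and 349.9 CPM in Mt1ko samples 4-6, 10-12 and 16-18, against 489.6, 228.6 and 462.4 CPM in control samples 1-3, 7-9 and 14-15. It was lowest in samples 10-12 and 7-9, as was Il6ra. Csf1r averaged 360.8 ± 100.3 CPM in Mt1ko and 391.5 ± 43.7 CPM in control, and Tnfrsf1a, a receptor for tumour necrosis factor, 139.8 ± 39.3 CPM in Mt1ko and 149.9 ± 22.4 CPM in control (SD, n = 3 each; edgeR adjusted p = 1 for each).

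Kinases, STATs and other signalling genes downstream of the receptors (Ptpn11, Grb2, Gab2, Cbl and Myd88) were all detected. All 18 listed genes were tested, with 6 estimates above 0 and 12 below, a median log2 fold change of -0.03, and 0 passed. Jak1, the kinase shared by the interleukin-6 and interferon gamma receptors, averaged 384.4 ± 40.5 CPM in Mt1ko and 384.8 ± 19.5 CPM in control (SD, n = 3 each). The Src-family kinase Lyn averaged 386.9 ± 78.2 CPM in Mt1ko and 405.1 ± 53.7 CPM in control, and Syk 345.9 ± 6.4 CPM in Mt1ko and 368.3 ± 42.5 CPM in control (edgeR adjusted p = 1 for the 3 kinases). The groups did not overlap for Stat5a, named after its values were seen, with an estimate of 0.29 on the log2 scale (SE 0.13; edgeR adjusted p = 1). That is 1 of 18 genes, against 7.1% of all.

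Genes that these receptors induce, and their feedback inhibitors, also gave no call. All 18 were tested, with 10 estimates above 0 and 8 below and a median log2 fold change of 0.08, and 0 passed. Socs3, the inhibitor induced through STAT3, was 401.4, 125.0 and 335.8 CPM in Mt1ko samples 4-6, 10-12 and 16-18, against 432.5, 135.9 and 313.9 CPM in control samples 1-3, 7-9 and 14-15. It was low in samples 10-12 and 7-9, as were Il6ra, Il6st and Csf3r, and whether these levels are linked was not tested. Mcl1, a survival factor, averaged 514.6 ± 23.4 CPM in Mt1ko and 538.3 ± 24.3 CPM in control, and Dusp6, a phosphatase that limits ERK, 258.6 ± 49.1 CPM in Mt1ko and 246.6 ± 25.4 CPM in control (SD, n = 3 each; edgeR adjusted p = 1 for each). The groups did not overlap for Spred1, an inhibitor of RAS signalling, also named after its values were seen, with an estimate of 0.33 on the log2 scale (SE 0.15; edgeR adjusted p = 1). That is again 1 of 18 genes, against 7.1% of all.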

How the data were processed

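Bulk RNA-seq was analysed in 17 libraries of leukaemic mouse bone marrow. Per the labels' protocols, RNA was purified on RNeasy Micro columns with a DNase step, and libraries were made with a stranded SMARTer Pico kit. Per the submitters' processing notes, Trimmomatic 0.35, RSEM 1.3.3 and the builds GRCm38 and mm10 were used. Neither an aligner nor a strand setting is named there. Raw counts per gene, whole numbers, were deposited once for 17 libraries and once as 6 summed columns. Each summed column equalled the sum of its libraries, with 0 genes differing.

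Symbols were matched to identifiers, and where several shared a symbol the one with the most counts was used. Coordinates and exon lengths came from GENCODE vM21, which matched 55141 of 56305 identifiers. The test on the sums was the quasi-likelihood F test of edgeR 4.0.16 (R 4.3.3), with group as its one term, after filterByExpr and TMM scaling, adjusted over all 16666 genes, threshold 0.05. TMM gave sample 10-12 a factor of 0.85 and the other 5 samples factors of 1.00 to 1.05. Each standard error was the estimate divided by the root of F. Likeness used log2(CPM + 1) over libraries with a minimum mean log2 CPM of 3, without predicted loci. The named genes were the 10 receptors, Mt1, the 3 most abundant tested genes of each pathway list and the 3 genes most like each receptor; marker genes were named from their lists after their values were seen. One of the genes most like Cxcr4 is not reported here. Receptors and lists were chosen with earlier results of these data known. Alternatives were RLE scaling, filters, 17 libraries with and without index, DESeq2 1.42.0, limma-voom 3.58.1, a threshold of 0.10 and leaving out each sample. Leaving out library 6, alone or with sample 10-12, was chosen after seeing the data. Limits of detection hold counting error alone, since duplicates made by PCR are not marked.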

Additional observations from a re-analysis of the deposited data

Results flagged for a closer look

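Of 22 groups of library values (10 receptors and Mt1 in 2 groups), 2 held a library far from the rest. Chance gives about 1 in 20 for independent, normally distributed values. Libraries of 1 sample are not independent, so that rate is only a rough guide here. Cxcr4 was 29.02 CPM in library 12, labelled Mt1ko, and the next highest Mt1ko library held 17.8 CPM. Mt1 was 316.9 CPM in library 6, labelled Mt1ko, and the next highest Mt1ko library held 95.8 CPM.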

How the results depend on the processing

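No receptor passed the threshold under any alternative run, and the lowest adjusted p of a receptor was 0.98. Directions of Csf2rb and Cxcr4 held under every alternative, but their sizes did not. Leaving out each sample in turn, Csf2rb ran from 0.066 (without sample 10-12) to 0.65. Cxcr4 ran from -0.49 to -0.030 (without sample 7-9). Without library 6 and sample 10-12, Csf2rb was 0.057. The number of genes called was 0 in the reported comparison and 1 with 17 libraries, with DESeq2, with library 6 left out and with library 6 and sample 10-12 left out; in each that gene was Mt1. Leaving out each sample in turn gave 0 genes and moved log2 fold changes from -0.30 to 0.22 for Csf2ra, -0.18 to 1.09 for Csf2rb2, -0.32 to 0.29 for Csf3r, -1.81 to 1.02 for Flt3, -0.26 to 0.052 for Ifngr1, -0.94 to 1.96 for Il1rl1, -0.53 to 0.13 for Il3ra, -0.32 to 0.024 for Il6ra and -0.24 to 0.26 for the log2 ratio of Csf2rb2 to Csf2rb. Without library 6 and sample 10-12 they were 0.24 for Csf2ra, -0.21 for Csf2rb2, 0.14 for Il3ra, 0.050 for Il6ra, -1.31 for Il1rl1 (unadjusted p = 0.026, adjusted p = 0.999 with edgeR) and 0.084 for Ifngr1. Csf2ra was 0.015 without library 6, 0.0051 with 17 libraries and index, and 0.051 with limma-voom, which gave 1.59 for Flt3. The stricter filter left Flt3 untested. The cause of these turns was not tested. No paired analysis was possible because the groups share no replicate numbers. In the libraries with 0 counts, 4 Mt1ko and 3 control for Flt3 and 1 Mt1ko for Il3ra, a level under 3 counts was not detectable.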
